A study of Homo sapiens with 72 samples.

Results

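Dermal fibroblasts exposed to 0.37 µM omaveloxolone were compared with the same cells exposed to 0.12 µM, adjacent steps of about 3-fold in a dose series. The comparison rests on 8 of the 72 wells of the series. These are plate wells K16, K6, L16 and L6 at 0.37 µM (wells 1 to 4, as the labels number them) and K17, K7, L17 and L7 at 0.12 µM (wells 1 to 4). The wells were chosen by dose alone, and all genes counted were eligible. All 8 wells held wildtype normal human dermal fibroblasts, a primary cell from a commercial source, exposed for 24 h to omaveloxolone. The other wells held 32 DMSO controls and 4 wells at each of 8 further doses (the protocol names 16 DMSO wells per plate, and all 32 that carry the label were used), and expression was read by DRUG-seq, in which barcoded 3′ ends of polyadenylated RNA from many wells are sequenced as a pool. The labels call the 4 wells of a dose biological replicates but name no separate cultures or donors, so the p-values here rest on the spread among wells, which may be technical. In the main test across genes that spread was estimated over all 72 wells, and not from the 8 wells alone. Among the 72 were the shallow 3.33 and 10 µM wells, of 25635 to 208739 counts. A gene that did not pass may therefore still be tight and apart in the 8 wells. The 0.37 µM wells lay in plate columns 6 and 16 and the 0.12 µM wells in plate columns 7 and 17, so dose and plate column cannot be told apart.

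Omaveloxolone, a semi-synthetic triterpenoid drug, acts on KEAP1, the adaptor that sends the transcription factor NRF2 to the proteasome. NRF2 that escapes degradation induces enzymes of glutathione and thioredoxin metabolism, quinone reduction, heme breakdown and iron storage. Electrophiles that react with more protein thiols can also release HSF1, which drives heat shock chaperones, and can set off the integrated stress response, in which ATF4 and its partners induce genes of amino acid supply and growth arrest. Dermal fibroblasts are otherwise marked by abundant collagen, decorin and vimentin mRNA.

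The 8 wells kept a fibroblast profile, at a lower level at 0.37 µM. Summed over 10 fibroblast markers, normalised levels (CPM, a gene's counts relative to its well's total after trimmed-mean-of-M-values scaling) were 38673, 37742, 35974 and 34305 at 0.37 µM and 64434, 65483, 62487 and 64646 at 0.12 µM. The 2 doses did not overlap, and DMSO wells ranged from 70243 to 84089 CPM. VIM, the mesenchymal intermediate filament, still reached 32311 ± 1717 CPM at 0.37 µM, against 52279 ± 4710 CPM at 0.12 µM (mean ± SD, n = 4 each, as for every mean below). In the test across all genes described below, 9 of the 10 markers were lower and 0 were higher. Of the other cell types, smooth muscle and pericyte markers had a summed level of 4.09 to 10.3 CPM in the 0.37 µM wells and of 4.1 to 5.11 CPM in the 0.12 µM wells. Endothelial markers summed to at most 2.65 CPM in any of the 8 wells. The 3 keratinocyte markers measured had a sum of 441 to 502 CPM in the 0.37 µM wells and of 400 to 468 CPM in the 0.12 µM wells, of which nearly all was KRT10, and none of them passed the test. The 5 leukocyte markers measured had a sum of 90.2 to 98.1 CPM in the 0.37 µM wells and of 84.9 to 124 CPM in the 0.12 µM wells, nearly all of it CD68, and 0 passed. Of the melanocyte markers, PMEL was at 0 in all 8 wells, and MITF, which other cells also express, averaged 5.61 ± 1.7 CPM at 0.37 µM and 27.9 ± 12.6 CPM at 0.12 µM (log2 -2.31, adjusted p = 0.000727).

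More counts came from the wells of the higher dose. Total counts were 9310743, 9488952, 10325365 and 10386621 at 0.37 µM, against 8192296, 7467207, 8749921 and 6625505 at 0.12 µM. Every 0.37 µM well exceeded every 0.12 µM well, by a ratio of means of 1.27 (exact two-sided permutation test over 70 splits, p = 0.0286, the smallest the design allows; adjusted p = 0.0429 over 3 well measures). The unadjusted p was 0.0571 without any 1 of the 0.37 µM wells. After each well was thinned to 6625505 counts, 13814 ± 150 genes were detected at 0.37 µM and 13668 ± 337 at 0.12 µM, and that difference did not pass (exact permutation test, adjusted p = 0.429). In lysates of whole wells, a change in cell number and a change in RNA per cell cannot be told apart, and neither was measured.

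The step in dose changed the level of 1159 of 14259 genes tested, or 8.13%. Of these, 360 (2.52% of those tested) were higher at 0.37 µM and 799 (5.6%) were lower, by edgeR's quasi-likelihood test with a Benjamini-Hochberg adjusted p under 0.05. A log2 change past 1 was reached by 299 of the higher and 650 of the lower genes, and one past 3 by 57 and 139. Without 0.37 µM well 2 the calls numbered 215 higher and 546 lower, without 0.12 µM well 2 they numbered 238 and 650, and without 0.12 µM well 4 they numbered 237 and 636. Within plate columns 6 and 7, 96 genes were higher and 298 lower, and within plate columns 16 and 17, 66 and 287. The balance of rises and falls depended on how wells were scaled to each other and on which wells shared the fit. With DESeq2 size factors in place of trimmed-mean scaling, the median log2 change over all genes moved from -0.01 to 0.27, and calls numbered 803 higher and 489 lower, so that 62.2% of calls were higher in place of 31.1%. With trimmed-mean scaling and the 8 wells alone, 1142 genes were higher and 1107 lower, and 50.8% of calls were higher. For the groups of genes below, the count under size factors is given where it differs by more than 1.5 times. Each count of calls in a group stands against the 2.52% higher and 5.6% lower over all genes tested.

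**Figure D1:**
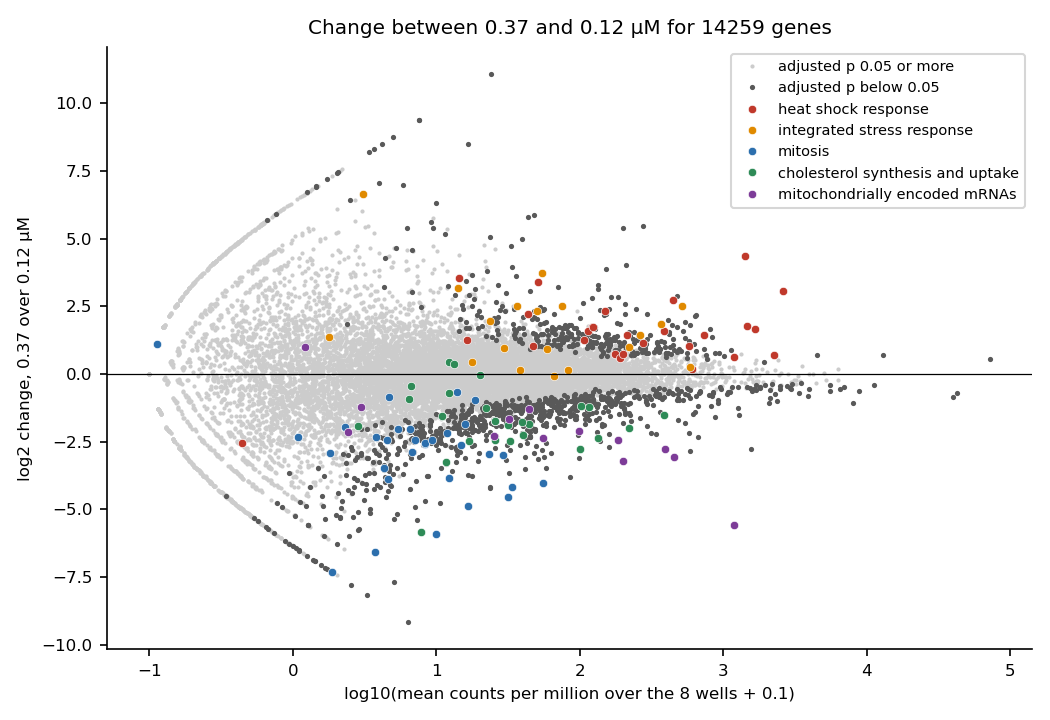
Change of every gene tested, as log2 of 0.37 µM over 0.12 µM from the edgeR fit, against mean level over the 8 wells, with a log10 scale of CPM plus 0.1 on the horizontal axis, called genes in dark grey and the members of 5 gene lists in colour. Among the calls, 360 genes lie above 0 and 799 below it.

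NRF2 target genes, already far above DMSO at 0.12 µM, moved both ways at the higher dose. Of 44 targets tested, 7 rose, 5 fell and 32 did not pass, with a median log2 change of 0.21 against -0.01 over all genes. With DESeq2 size factors 14 rose and 3 fell, and without 0.37 µM well 2 or 0.37 µM well 4 only 3 of the falls were called. The sum over the list was 127196 to 135744 CPM in the 0.37 µM wells and 84452 to 100189 CPM in the 0.12 µM wells, with a DMSO median of 28408 CPM, and most of that sum was FTL.

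FTL, the ferritin light chain that stores iron, had 83871, 84126, 87431 and 88506 CPM at 0.37 µM and 53901, 61366, 52501 and 64293 CPM at 0.12 µM. The doses were clearly apart, with a log2 change of 0.57 (SE 0.11, adjusted p = 7.62e-05), and FTL alone took 8.13 ± 0.219% of all counts at 0.37 µM against 5.29 ± 0.398% at 0.12 µM. HMOX1 (GRCh38 chr22:35380361-35394214), which breaks down heme, had 17355, 14995, 14305 and 17054 CPM at 0.37 µM against 9277, 11131, 8303 and 10577 CPM at 0.12 µM. Its wells were apart too, but the call was marginal (log2 0.70, SE 0.23, adjusted p = 0.0463) and was lost on leaving out any 1 of the 8 wells (adjusted p = 0.0511 to 0.134).

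NQO1 (chr16:69706996-69726951), the quinone reductase often used to read NRF2 activity, had 5475, 5642, 5609 and 5568 CPM at 0.37 µM and 3308, 3571, 3271 and 3376 CPM at 0.12 µM. The wells of each dose were tight and the gap wide, and the rise was 0.72 on the log2 scale (SE 0.21, adjusted p = 0.0154). SQSTM1 (chr5:179806398-179838078), an autophagy receptor that also binds KEAP1, rose the most securely of the targets. It had 966, 1170, 1035 and 1075 CPM at 0.37 µM and 239, 257, 249 and 201 CPM at 0.12 µM, about the same within each dose. Its log2 change was 2.17 (SE 0.26, adjusted p = 7.37e-10). BLVRB, a biliverdin reductase of the same heme pathway as HMOX1, averaged 533 ± 59.5 CPM at 0.37 µM and 237 ± 19.9 CPM at 0.12 µM (log2 1.17, adjusted p = 0.000195).

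The genes of glutathione synthesis did not pass in the fit of all wells. GCLM, the modifier subunit of glutamate-cysteine ligase, had 1031, 918, 819 and 979 CPM at 0.37 µM and 613, 791, 457 and 680 CPM at 0.12 µM. Although its wells did not overlap, its log2 change of 0.56 (SE 0.34) had an adjusted p of 0.36, though it passed in a fit of the 8 wells alone and by the DESeq2 Wald test (adjusted p = 0.0149 and 0.0295). The catalytic subunit GCLC averaged 22.8 ± 5.87 CPM at 0.37 µM and 10.3 ± 3.25 CPM at 0.12 µM (adjusted p = 0.544). The cystine transporter gene SLC7A11 averaged 130 ± 23.6 CPM at 0.37 µM and 124 ± 27.1 CPM at 0.12 µM, with overlapping wells. TXNRD1, thioredoxin reductase, averaged 1793 ± 240 CPM at 0.37 µM and 1582 ± 129 CPM at 0.12 µM (log2 0.18, SE 0.20, adjusted p = 0.682).

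OSGIN1, a target linked to growth arrest, had 150, 199, 149 and 143 CPM at 0.37 µM and 27.5, 43.9, 25.1 and 29.1 CPM at 0.12 µM. That gap of 2.35 on the log2 scale (SE 0.81) just missed the threshold (adjusted p = 0.0555), and it passed under 6 of 19 alternatives, DESeq2 size factors and a fit of the 8 wells alone among them. SRXN1, sulfiredoxin, had 43 counts over the 4 wells at 0.37 µM, all in wells 1 and 2, and 0 at 0.12 µM, too few to enter the test. The regulators themselves did not pass in the fit of all wells. NFE2L2, which encodes NRF2, averaged 258 ± 32.5 CPM at 0.37 µM and 168 ± 4.58 CPM at 0.12 µM (log2 0.62, SE 0.28, adjusted p = 0.169). It passed under the same 6 alternatives as OSGIN1, with an adjusted p of 0.00149 to 0.0358. KEAP1 averaged 80.4 ± 7.99 and 87.6 ± 16 CPM at those doses, and BACH1, a repressor of the same sites, 94 ± 18.1 and 104 ± 27.7 CPM.

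Of the 5 falls among NRF2 targets, 3 held without any 1 well. TKT, transketolase of the pentose phosphate pathway, had 236, 230, 242 and 253 CPM at 0.37 µM against 947, 769, 803 and 845 CPM at 0.12 µM. The 0.37 µM level was also below the DMSO median of 461 CPM, and the log2 change was -1.81 (SE 0.19, adjusted p = 2.04e-11). AKR1C3, an aldo-keto reductase, averaged 500 ± 128 CPM at 0.37 µM and 1141 ± 89 CPM at 0.12 µM (log2 -1.19, adjusted p = 1.98e-05). The aldehyde dehydrogenase gene ALDH3A2 averaged 111 ± 24.2 CPM at 0.37 µM and 242 ± 39.5 CPM at 0.12 µM (log2 -1.12, adjusted p = 0.00108). The calls of AKR1C2 (log2 -0.85), lost without 0.37 µM wells 2 or 4 (highest adjusted p = 0.129), and of FECH (log2 -1.35), lost without any 1 well (highest adjusted p = 0.13), made up the rest.

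Heat shock genes rose broadly. Of 27 tested, 19 rose and 0 fell, with a median log2 change of 1.46, and the list summed to 18462, 29689, 21310 and 22075 CPM at 0.37 µM against 7291, 7662, 7344 and 7753 CPM at 0.12 µM. DMSO wells ranged from 5409 to 6535 CPM, close under the 0.12 µM wells. Leaving out any 1 well left 18 or 19 rises, and size factors gave 23.

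HSPA1A (chr6:31815464-31817946), the inducible HSP70, had 1957, 3860, 2307 and 2686 CPM at 0.37 µM and 112, 135, 138 and 140 CPM at 0.12 µM. Every 0.37 µM well was more than 10-fold above every 0.12 µM well, while the 0.12 µM wells sat beside the DMSO median of 110 CPM. Its log2 change was 4.36 (SE 0.32, adjusted p = 1.28e-18). HSPA1B (chr6:31827735-31830255) is nearly identical in sequence, so the split of counts between the pair is uncertain, and it averaged 775 ± 212 CPM at 0.37 µM and 115 ± 16.3 CPM at 0.12 µM. Its log2 change was 2.76 (adjusted p = 1.73e-09).

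The promoter of HSPA1A is shown because the best-known site for HSF1 lies in it. In the 250 bases before the RefSeq start (GRCh38.p14), 1 match to GAANNTTC or TTCNNGAA was found, in capitals here in chr6:31815417-31815464 (plus strand).
HSPA1A: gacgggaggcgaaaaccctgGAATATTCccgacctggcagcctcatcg
The same letters, searched on both strands, were present in 9 of 24 heat shock genes with a promoter sequence (37.5%), against 8.94% of 10923 tested genes. A match describes the letters of the window and not a site in use.

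Other chaperones of the list followed at lower folds. CRYAB, a small heat shock protein, had 2763, 7562, 4499 and 3832 CPM at 0.37 µM and 606, 571, 455 and 572 CPM at 0.12 µM (log2 3.08, SE 0.30, adjusted p = 3.13e-13). Well 2 stood highest at 0.37 µM, as it did for HSPA1A. HSPA8, the constitutive HSP70, had 1990, 3638, 2118 and 2428 CPM at 0.37 µM and 737, 832, 742 and 868 CPM at 0.12 µM (log2 1.68, adjusted p = 5.98e-13). The mitochondrial chaperonin gene HSPD1 averaged 1071 ± 115 CPM at 0.37 µM and 398 ± 36.5 CPM at 0.12 µM (log2 1.43, adjusted p = 1.23e-09). HSP90AA1, the inducible HSP90, averaged 2264 ± 301 CPM at 0.37 µM and 667 ± 18.8 CPM at 0.12 µM (log2 1.76, adjusted p = 1.26e-08), and its co-chaperone FKBP4 averaged 248 ± 21.7 and 49.4 ± 6.15 CPM (log2 2.33, adjusted p = 7.48e-07).

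Proteasome genes rose alongside the chaperones, with log2 changes of 0.68 to 1.44 among the called genes. In the 20S core, the barrel that cuts proteins, 9 of 14 genes rose and 0 fell (median log2 0.81). That count was 5 without 0.37 µM well 2 or 0.12 µM well 4. In the 19S cap, which unfolds ubiquitinated substrates, 9 of 18 rose and 0 fell (median log2 0.85), and size factors gave 14. PSMB2 of the core had 684, 952, 742 and 821 CPM at 0.37 µM and 389, 349, 345 and 300 CPM at 0.12 µM, with no overlap (log2 1.21, SE 0.18, adjusted p = 8.37e-07). PSMD13 of the cap averaged 155 ± 25.2 CPM at 0.37 µM and 57.1 ± 6.46 CPM at 0.12 µM (log2 1.44, adjusted p = 0.000125), and PSMB7 averaged 352 ± 32.4 and 148 ± 11.3 CPM (log2 1.25, adjusted p = 0.000175).

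Among 18 genes of ubiquitin transfer and the p97 unfoldase, 4 rose, and with size factors 9 did. ZFAND2A, an arsenite-inducible proteasome partner, had 95.1, 190, 124 and 95.3 CPM at 0.37 µM and 14.7, 10.4, 13 and 16.8 CPM at 0.12 µM. The smallest of its 0.37 µM values was well above the largest at 0.12 µM (log2 3.20, SE 0.43, adjusted p = 3.16e-08). UFD1, a p97 cofactor, averaged 231 ± 56.1 CPM at 0.37 µM and 83.2 ± 18.3 CPM at 0.12 µM (log2 1.48, adjusted p = 0.000639), and VCP, p97 itself, 443 ± 66.3 and 232 ± 46.7 CPM (log2 0.93, adjusted p = 0.00424). In the CCT chaperonin, which folds actin and tubulin, 2 of 8 subunits rose. CCT2 averaged 477 ± 28.3 CPM at 0.37 µM and 210 ± 11.4 CPM at 0.12 µM (log2 1.18, adjusted p = 0.000176), while the call of TCP1 (log2 0.92) was lost without 0.12 µM well 3 (adjusted p = 0.0544).

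Genes of the integrated stress response also rose. Of 19 tested, 11 rose and 0 fell, with a median log2 change of 1.44. The sum over the list was 3119 to 4092 CPM in the 0.37 µM wells and 1365 to 1556 CPM in the 0.12 µM wells, and the 0.12 µM wells lay inside the DMSO range of 1343 to 1642 CPM.

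PPP1R15A, which restarts translation by dephosphorylating eIF2α, had 514, 670, 520 and 588 CPM at 0.37 µM and 166, 166, 142 and 158 CPM at 0.12 µM. The change was 1.86 on the log2 scale (SE 0.24, adjusted p = 5.81e-09), with the doses far apart. DDIT4 (chr10:72273920-72276036), an inhibitor of mTORC1, had 52.4, 75.1, 69.8 and 52.7 CPM at 0.37 µM and 11.3, 9.91, 12.5 and 10.1 CPM at 0.12 µM (log2 2.51, SE 0.38, adjusted p = 8.11e-07). Its course was not a plain rise with dose, since the DMSO median was 42.4 CPM and the mean at 0.04 µM was 28.8 CPM. DDIT3, which encodes CHOP, averaged 84.3 ± 29.1 CPM at 0.37 µM and 16.9 ± 2.41 CPM at 0.12 µM (log2 2.32, adjusted p = 6.12e-06). ATF4 itself averaged 294 ± 18.2 CPM at 0.37 µM and 146 ± 14.5 CPM at 0.12 µM (log2 1.01, adjusted p = 6.74e-05).

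CHAC1, which degrades glutathione, had 221 counts over the 4 wells at 0.37 µM and 1 count at 0.12 µM. That is a ratio of 174 per total count, with an exact 95% counting interval of 30.8 to 6887. The gene passed the test (adjusted p = 0.00413), also without any 1 well, although its fitted log2 change of 6.65 became 8.07 without 0.12 µM well 4, which held the single count. GDF15, a secreted stress cytokine, had 54.1, 175, 91.4 and 85 CPM at 0.37 µM and 8.08, 7.81, 12.6 and 1.35 CPM at 0.12 µM. All 0.37 µM wells were above all 0.12 µM wells (log2 3.75, SE 0.66, adjusted p = 1.87e-05). ATF3 averaged 25.4 ± 17.2 CPM at 0.37 µM and 2.77 ± 1.93 CPM at 0.12 µM (log2 3.18, adjusted p = 0.026), a call that did not hold without 0.37 µM well 2 or 0.12 µM wells 1, 2 or 4 (highest adjusted p = 0.116).

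Amino acid and one-carbon genes, many of them induced by ATF4, moved less uniformly, with 3 of 17 higher and 1 lower (median log2 0.75), and 4 and 0 with size factors. SLC3A2, the shared chain of amino acid exchangers, had 444, 577, 456 and 442 CPM at 0.37 µM and 105, 93.3, 120 and 95.7 CPM at 0.12 µM, a wide and even gap (log2 2.22, SE 0.39, adjusted p = 1.78e-05). MTHFD2, a mitochondrial folate enzyme, averaged 242 ± 31.9 CPM at 0.37 µM and 101 ± 13.7 CPM at 0.12 µM (log2 1.26, adjusted p = 0.0013). ASNS, asparagine synthetase, averaged 110 ± 30.1 CPM at 0.37 µM and 45.5 ± 13.8 CPM at 0.12 µM (log2 1.27, adjusted p = 0.0379). Its call was lost without 0.37 µM wells 2 or 4 or 0.12 µM wells 1, 2 or 4 (highest adjusted p = 0.151). PSAT1, of serine synthesis, was the gene that fell, with 125 ± 15.8 CPM at 0.37 µM and 232 ± 45.8 CPM at 0.12 µM (log2 -0.89, adjusted p = 0.0163). Without 0.37 µM wells 2, 3 or 4 or 0.12 µM wells 1 or 2 that call was lost too (highest adjusted p = 0.0943). Among 13 cytosolic tRNA synthetases 1 passed, near the 8.13% of all genes tested, and with size factors 6 did. The 1 that passed was GARS1, at 474 ± 56.6 CPM at 0.37 µM and 232 ± 9.35 CPM at 0.12 µM (log2 1.03, adjusted p = 7.28e-06).

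Promoters of ATF3 and ASNS are shown as members of these lists whose sequence holds the combined C/EBP and ATF element, TGATGNAA, in capitals. The windows are chr1:212565196-212565243 (plus strand) and chr7:97872449-97872496 (minus strand) of GRCh38.p14, from RefSeq.
ATF3: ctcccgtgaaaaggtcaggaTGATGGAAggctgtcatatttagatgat
ASNS: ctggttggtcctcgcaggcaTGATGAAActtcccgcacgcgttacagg
In the 250 bases before the start, on either strand, the element was found in 2 of 16 genes of the integrated stress response list (12.5%) and 2 of 14 of the amino acid list (14.3%), against 1.55% of tested genes.

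Chaperones of the endoplasmic reticulum rose in part. Of 20 genes, 7 rose and 0 fell (median log2 0.52), but only 3 or 4 were called without 0.37 µM wells 2 or 4 or without 0.12 µM wells 1, 2 or 4. As a list they returned to the DMSO level and did not exceed it. The sum was 2413 to 3638 CPM in the 0.37 µM wells and 1487 to 2552 CPM in the 0.12 µM wells. DMSO wells ranged from 2129 to 3853 CPM. The median log2 change from DMSO was -0.40 at 0.12 µM and 0.02 at 0.37 µM. HSPA5 (chr9:125234853-125241330), the chaperone BiP, had 213, 593, 285 and 316 CPM at 0.37 µM and 73.9, 56, 77.2 and 24.9 CPM at 0.12 µM. The doses did not overlap (log2 2.60, SE 0.36, adjusted p = 9.04e-08), yet the DMSO median of 200 CPM was above every 0.12 µM well and just under the lowest 0.37 µM well. XBP1, a transcription factor of the unfolded protein response, averaged 264 ± 13.3 CPM at 0.37 µM and 99.5 ± 36.5 CPM at 0.12 µM (log2 1.41, adjusted p = 8.19e-06), with 130 CPM as its DMSO median.

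**Figure D2:**
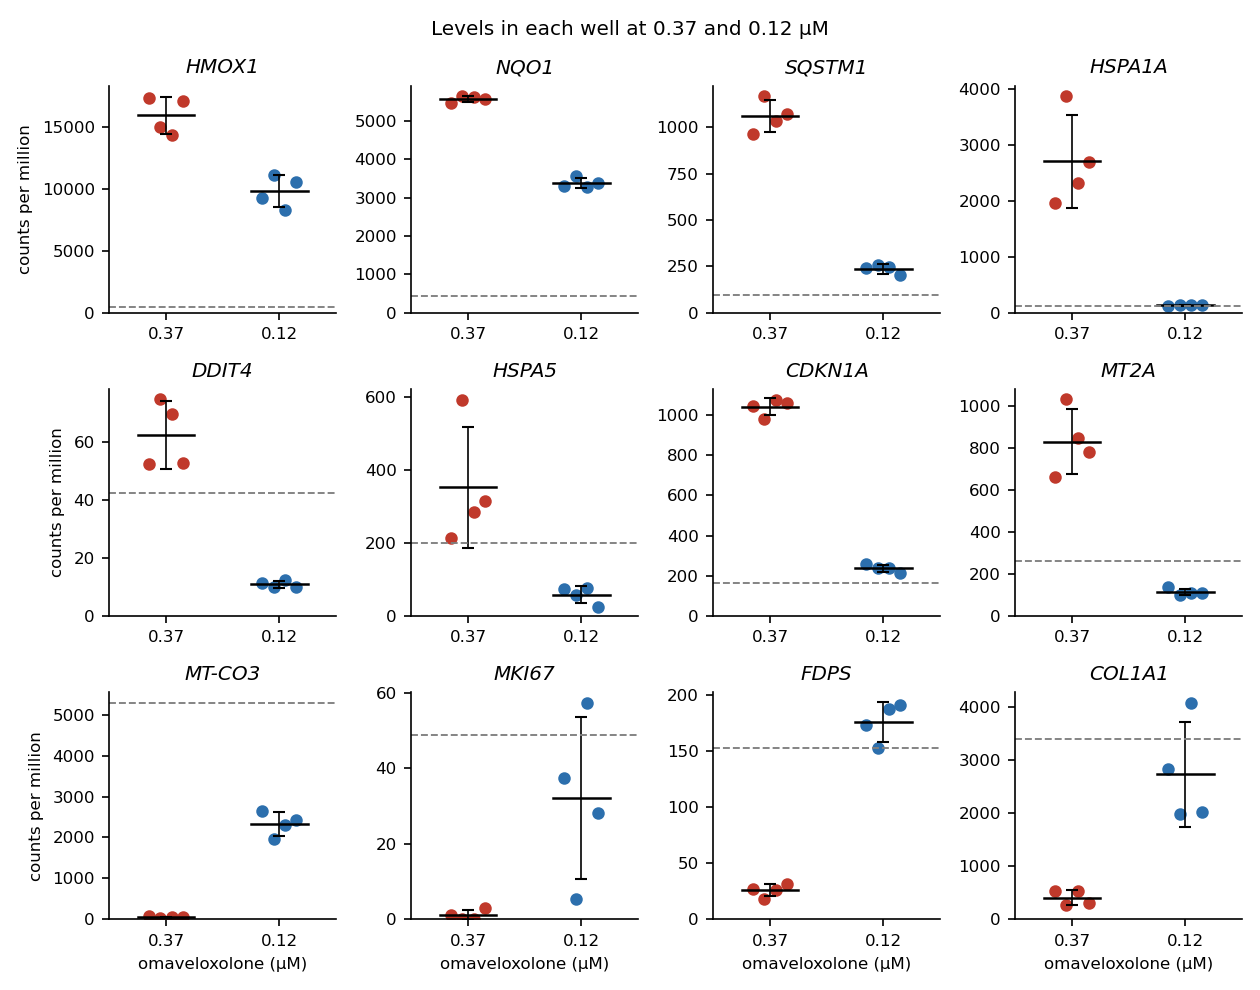
CPM on linear axes from 0 in each of the 4 wells at 0.37 µM (red) and the 4 wells at 0.12 µM (blue) for 12 genes, with the mean and SD in black and the DMSO median as a dashed line. HSPA1A lies between 1957 and 3860 CPM at 0.37 µM and between 112 and 140 CPM at 0.12 µM.

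Of 24 targets of p53, 8 rose and 0 fell (median log2 0.39), with 5 rises without 0.37 µM well 2 or 0.12 µM well 4. CDKN1A (chr6:36676460-36687339), the kinase inhibitor p21, had 1047, 980, 1074 and 1062 CPM at 0.37 µM and 257, 239, 236 and 211 CPM at 0.12 µM. Neither dose varied much and the gap was 2.14 on the log2 scale (SE 0.17, adjusted p = 2.62e-17). MDM2, the ubiquitin ligase of p53, had 268, 371, 389 and 320 CPM at 0.37 µM and 81.9, 66.2, 74.2 and 69.4 CPM at 0.12 µM (log2 2.21, adjusted p = 1.25e-06). GADD45A, which belongs to the integrated stress response list as well, averaged 873 ± 111 CPM at 0.37 µM and 152 ± 22.8 CPM at 0.12 µM (log2 2.52, adjusted p = 4.58e-08). SESN2, likewise in both lists, averaged 128 ± 33.5 and 22.3 ± 4.81 CPM (log2 2.52, adjusted p = 8.40e-06). PMAIP1, the pro-apoptotic NOXA and one of 2 genes called among 14 of the BCL2 family, had 49.2, 85.6, 80.7 and 41.5 CPM at 0.37 µM and 4.24, 1.2, 2.06 and 2.02 CPM at 0.12 µM. Despite that separation its call (log2 4.74, SE 1.45, adjusted p = 0.0277) was lost without 0.37 µM well 2 or any 1 of the 0.12 µM wells (highest adjusted p = 0.0868). BCL2L2, an anti-apoptotic member and the other gene called, averaged 195 ± 18.3 CPM at 0.37 µM and 58.2 ± 19.8 CPM at 0.12 µM (log2 1.74, adjusted p = 0.0174), and was not called without 0.12 µM wells 1 or 2 (highest adjusted p = 0.0742).

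Metallothioneins, which bind zinc and other metals, rose in 3 of 8 genes tested (median log2 1.73), with 1 rise and 1 fall called without 0.37 µM well 2. MT2A (chr16:56608199-56609497) had 663, 1035, 851 and 780 CPM at 0.37 µM and 137, 100, 108 and 109 CPM at 0.12 µM. Its 0.12 µM wells were also under the DMSO median of 261 CPM, and the change was 2.87 on the log2 scale (SE 0.24, adjusted p = 5.67e-16). MT1X had 17, 136, 38.9 and 40.7 CPM at 0.37 µM and 4.77, 15.5, 9.46 and 14.1 CPM at 0.12 µM, and its log2 change of 2.41 (adjusted p = 0.0059) fell to 1.57 without 0.37 µM well 2 and was no longer called (adjusted p = 0.149). Paralogs of this family are close in sequence, so their counts may be split imperfectly.

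Of 25 lysosome and autophagy genes, 5 rose and 1 fell (median log2 0.35), against 2.52% and 5.6% of all genes tested. The fall, that of ULK1, was not called without 0.37 µM well 1 (adjusted p = 0.0904) or with size factors. ATP6V1B2, a subunit of the proton pump that acidifies lysosomes, had 210, 283, 229 and 245 CPM at 0.37 µM and 43.4, 59.8, 49.5 and 62.5 CPM at 0.12 µM (log2 2.17, SE 0.28, adjusted p = 1.63e-08). The autophagosome protein gene MAP1LC3B had 500, 1131, 584 and 690 CPM at 0.37 µM and 247, 184, 240 and 206 CPM at 0.12 µM (log2 1.73, adjusted p = 5.30e-07), and its relative GABARAPL1 averaged 257 ± 72.9 and 50.4 ± 12.1 CPM (log2 2.35, adjusted p = 3.29e-06). The doses did not overlap in these 3 genes, which with SQSTM1 above make up 4 of the 5 rises. Of the 25 genes, 7 were higher at 0.37 µM without overlap and 1 was lower. Over all 14259 genes tested, 1486 were higher without overlap and 1451 lower.

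Transcripts of the mitochondrial genome fell steeply. Their 13 mRNAs took 0.0469, 0.0317, 0.0513 and 0.0413% of counts at 0.37 µM against 0.539, 0.347, 0.502 and 0.409% at 0.12 µM. The share was 10.5-fold lower at 0.37 µM, with no overlap (exact permutation test, p = 0.0286, adjusted p = 0.0429), and DMSO wells held a median of 0.977%. At both doses it was higher in wells 1 and 3, of plate columns 16 and 17, than in wells 2 and 4. In the test across genes 9 of 13 fell and 0 rose, with a median log2 change of -2.28.

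The loss was uneven among these mRNAs, although they are transcribed from the same circular genome. MT-CO3 (mitochondrial positions 9207 to 9990), a cytochrome oxidase subunit, had 67.6, 37.8, 45.1 and 45.9 CPM at 0.37 µM and 2655, 1951, 2308 and 2429 CPM at 0.12 µM. It was the deepest called fall among genes of at least 10 CPM (log2 -5.57, SE 0.29, adjusted p = 2.51e-26). MT-CO1 had 109, 74.7, 119 and 80.1 CPM at 0.37 µM and 990, 594, 1073 and 559 CPM at 0.12 µM (log2 -3.07, adjusted p = 7.01e-13), and MT-CO2 averaged 102 ± 27.9 and 682 ± 109 CPM (log2 -2.75, adjusted p = 1.99e-11). MT-ND1, of complex I, averaged 39.1 ± 8.62 CPM at 0.37 µM and 361 ± 45.7 CPM at 0.12 µM (log2 -3.21, adjusted p = 1.57e-13). Among 34 respiratory chain subunits encoded in the nucleus 2 fell, near the 5.6% of all genes tested that did. They were COX4I1 (log2 -0.55) and ATP5F1A (log2 -0.73), and the list median was -0.19. With size factors neither was called, 1 other gene rose and the median was 0.11. The call of COX4I1 was lost without any 1 of the 8 wells (adjusted p = 0.0519 to 0.159), and that of ATP5F1A without wells 2 or 3 at 0.37 µM or wells 2 or 4 at 0.12 µM (highest adjusted p = 0.113).

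Genes of mitosis fell to near the limit of counting. Of 32 tested, 22 fell and 0 rose, with a median log2 change of -2.57. The list summed to 90.3, 102, 102 and 116 CPM at 0.37 µM against 721, 437, 1078 and 509 CPM at 0.12 µM. At 0.12 µM wells 1 and 3, of plate column 17, were above wells 2 and 4, of plate column 7, which was not so at 0.37 µM. The 0.12 µM wells reached into the DMSO range of 632 to 1392 CPM and the 0.37 µM wells were far under it.

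MKI67 (chr10:128096659-128126385), the proliferation marker Ki-67, had 1.14, 0.111, 0 and 2.97 CPM at 0.37 µM and 37.5, 5.41, 57.3 and 28.1 CPM at 0.12 µM. Its lowest 0.12 µM well was above its highest 0.37 µM well (log2 -4.89, SE 0.58, adjusted p = 8.75e-10), and the log2 change was -6.21 without 0.37 µM well 4. CDK1, the kinase that starts mitosis, had 1.03, 0, 0.204 and 0 CPM at 0.37 µM and 27.4, 16.4, 28 and 5.39 CPM at 0.12 µM (log2 -5.90, SE 0.97, adjusted p = 5.72e-06; -7.70 without 0.37 µM well 1). CENPF, a kinetochore protein, averaged 3.55 ± 1.96 CPM at 0.37 µM and 64.1 ± 28.4 CPM at 0.12 µM (log2 -4.16, adjusted p = 3.58e-11).

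TOP2A, a topoisomerase, averaged 2.53 ± 3.09 CPM at 0.37 µM and 60 ± 23.1 CPM at 0.12 µM (log2 -4.55, adjusted p = 1.63e-07), and its log2 change was -5.88 without 0.37 µM well 3. UBE2C, which tags cyclins for destruction, averaged 6.43 ± 6.05 and 104 ± 58.5 CPM at these doses (log2 -4.02, adjusted p = 1.68e-08; -4.62 without 0.37 µM well 1). The cyclin gene CCNA2 averaged 1.56 ± 2.8 and 22.7 ± 14.1 CPM (log2 -3.85, adjusted p = 1.75e-05), and without 0.37 µM well 2, which held nearly all of its counts at that dose, the log2 change was -6.83. BUB1B, of the spindle checkpoint, had 2 counts over the wells at 0.37 µM and 208 at 0.12 µM, a 132-fold lower share of counts with an exact 95% counting interval of 36.2 to 1101. NUF2, of the kinetochore, had 0 counts at 0.37 µM and 97 at 0.12 µM, at least 41.2-fold lower against a floor of 3 counts over the group.

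Promoters of MKI67 and CDK1 are shown with TTTGAA in capitals, the core of the element that cell cycle repressor complexes bind. The windows are chr10:128126427-128126490 (minus strand) and chr10:60778150-60778195 (plus strand) of GRCh38.p14, from RefSeq.
MKI67: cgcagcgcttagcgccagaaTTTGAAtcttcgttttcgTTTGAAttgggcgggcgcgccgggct
CDK1: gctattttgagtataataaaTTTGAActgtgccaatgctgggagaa
On either strand of the 250 bases before the start, TTTGAA occurred in 15 of 26 mitosis genes with a promoter sequence (57.7%), against 8.7% of tested genes. CCAAT, which often stands beside it, occurred in 20 of 26 (76.9%), against 34.8%.

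DNA replication genes fell less steeply, 14 of 32 with 0 higher and a median log2 change of -1.30. Between 8 and 12 were called on leaving out any 1 well, with 8 or 9 without any 0.37 µM well or without 0.12 µM wells 1 or 4, and size factors gave 5. RRM2, the ribonucleotide reductase subunit made in S phase, had 3.54, 3.2, 0.714 and 2.15 CPM at 0.37 µM and 51.6, 34.2, 49.1 and 42.4 CPM at 0.12 µM (log2 -4.20, SE 0.48, adjusted p = 1.78e-10). The doses were more than 9-fold apart at their nearest wells. MCM6, of the replicative helicase, averaged 7.64 ± 3.57 CPM at 0.37 µM and 36.3 ± 10.5 CPM at 0.12 µM (log2 -2.25, adjusted p = 9.16e-05).

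Sterol genes fell as a block. Of 25 genes of cholesterol synthesis and uptake, 16 fell and 0 rose, with a median log2 change of -1.77, and leaving out any 1 well left 15 or 16. Their sum was 721, 731, 669 and 597 CPM at 0.37 µM against 2202, 2097, 2482 and 2008 CPM at 0.12 µM, and the 0.12 µM wells lay within the DMSO range of 1979 to 2663 CPM.

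FDPS (chr1:155308748-155320666), which makes farnesyl diphosphate, had 27.2, 18.1, 26 and 31.3 CPM at 0.37 µM and 173, 153, 188 and 191 CPM at 0.12 µM. The gap was even across wells, at -2.78 on the log2 scale (SE 0.20, adjusted p = 1.66e-18). FDFT1, squalene synthase, had 101, 107, 79.6 and 67.4 CPM at 0.37 µM and 341, 374, 358 and 333 CPM at 0.12 µM (log2 -1.98, adjusted p = 2.84e-09). MVD, of the mevalonate pathway, averaged 9.94 ± 3.55 and 55.2 ± 7.07 CPM (log2 -2.47, adjusted p = 5.07e-08). SREBF2, the transcription factor of the pathway, averaged 11.9 ± 1.65 CPM at 0.37 µM and 39.3 ± 14.4 CPM at 0.12 µM (log2 -1.72, adjusted p = 0.000176).

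Of 14 fatty acid synthesis genes, 4 fell and 0 rose, the same number on leaving out any 1 well. SCD, which desaturates stearate, had 16.1, 24.5, 21.3 and 20.7 CPM at 0.37 µM and 173, 139, 213 and 183 CPM at 0.12 µM, more than 5-fold apart at the nearest wells (log2 -3.10, SE 0.27, adjusted p = 2.28e-15). SREBF1, the transcription factor of the pathway, averaged 3.08 ± 0.67 CPM at 0.37 µM and 12.4 ± 3.87 CPM at 0.12 µM (adjusted p = 0.00397). The others were FADS2 and FASN, with log2 changes of -1.68 and -1.23. TXNIP (chr1:145992435-145996600), an arrestin that limits glucose uptake and is driven by glucose sensing, had 10.1, 14.9, 8.66 and 11.9 CPM at 0.37 µM and 171, 161, 161 and 146 CPM at 0.12 µM. Its wells were tight at 0.12 µM and ranged from 8.66 to 14.9 CPM at 0.37 µM (log2 -3.81, SE 0.26, adjusted p = 1.09e-19), while the DMSO median was 307 CPM. It was the only one of 4 genes of its family tested that passed. In glycolysis 1 of 20 genes passed, a smaller share than the 8.13% over all genes tested. That was the glucose transporter gene SLC2A3, at 130 ± 37.7 CPM at 0.37 µM and 36.8 ± 8.31 CPM at 0.12 µM (log2 1.82, adjusted p = 0.0117). It was not called without 0.37 µM well 2 or 0.12 µM well 1 (highest adjusted p = 0.0599), and with size factors 6 of the 20 passed.

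**Figure D3:**
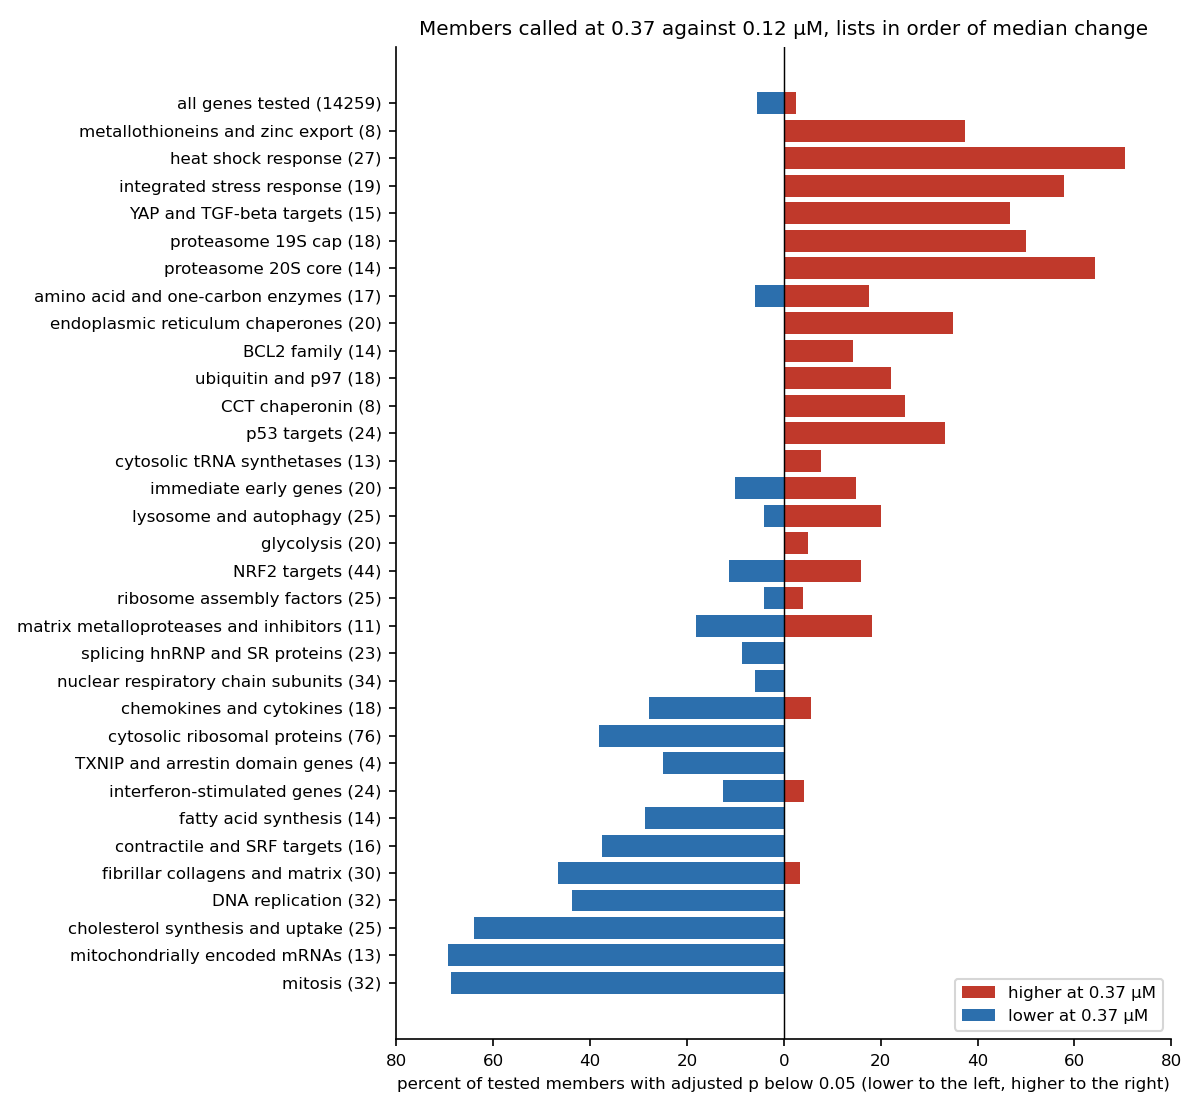
Number of genes called higher and lower at 0.37 µM against 0.12 µM in each gene list, as a percent of the genes tested in it, beside the percent over all 14259 genes. Heat shock, integrated stress response and proteasome lists hold rises only, and mitosis, cholesterol and mitochondrial mRNA lists hold falls only.

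Matrix genes of the fibroblast fell. Of 30 genes of fibrillar collagens and matrix, 14 fell and 1 rose (median log2 -0.88), and size factors left 6 falls. Without 0.12 µM well 3, which had the highest collagen counts, 6 fell, and without 0.37 µM well 4, 9 did. The spread followed the side of the plate. The list summed to 7097, 6460, 7403 and 5707 CPM at 0.37 µM and 15524, 11418, 21996 and 12249 CPM at 0.12 µM. At both doses wells 1 and 3, of plate columns 16 and 17, were the higher ones. The list median was -1.16 within plate columns 16 and 17 and -0.60 within plate columns 6 and 7. COL1A1 (chr17:50183289-50201632), the main chain of type I collagen, had 533, 262, 523 and 298 CPM at 0.37 µM and 2824, 1973, 4076 and 2021 CPM at 0.12 µM. The doses were apart despite the spread within each (log2 -2.75, SE 0.36, adjusted p = 2.38e-08). COL3A1 had 236, 172, 293 and 135 CPM at 0.37 µM and 990, 627, 1458 and 666 CPM at 0.12 µM (log2 -2.16, adjusted p = 5.00e-05), and COL6A3 averaged 113 ± 21.1 and 510 ± 127 CPM (log2 -2.17, adjusted p = 5.93e-07). The gene that rose was PLOD2, a collagen lysyl hydroxylase, with 36, 118, 99.2 and 87.9 CPM at 0.37 µM and 5.03, 0.451, 0.364 and 0.168 CPM at 0.12 µM (log2 5.79, SE 1.24, adjusted p = 0.000589; 7.92 without 0.12 µM well 1).

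Contractile genes fell in 6 of 16 cases and rose in 0, with 2 falls under size factors. CALD1, caldesmon of the actin filament, had 118, 95.9, 129 and 140 CPM at 0.37 µM and 599, 514, 546 and 572 CPM at 0.12 µM (log2 -2.21, SE 0.24, adjusted p = 2.69e-11). VCL, vinculin of focal adhesions, averaged 57.2 ± 9.96 CPM at 0.37 µM and 157 ± 11.5 CPM at 0.12 µM (log2 -1.46, adjusted p = 7.26e-05). ACTB, cytoplasmic actin, averaged 5294 ± 152 CPM at 0.37 µM and 7659 ± 598 CPM at 0.12 µM (log2 -0.53, adjusted p = 0.000178).

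Targets of YAP and TGF-β did not fall with the matrix, and 7 of 15 rose (median log2 1.02). CCN1, a matricellular protein, had 589, 1033, 698 and 796 CPM at 0.37 µM and 243, 239, 284 and 280 CPM at 0.12 µM (log2 1.57, SE 0.21, adjusted p = 2.68e-08). CCN2 had 133, 561, 214 and 246 CPM at 0.37 µM and 43.4, 36.7, 50.2 and 27.8 CPM at 0.12 µM, with well 2 again the highest (log2 2.87, adjusted p = 0.00032). Without 0.37 µM well 2 or 0.12 µM wells 1 or 2, 1 gene of the list was called lower.

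Among 11 matrix proteases and inhibitors 2 rose and 2 fell, and with size factors 2 and 1. The collagenase gene MMP1 had 152, 251, 253 and 199 CPM at 0.37 µM and 38.4, 34.7, 34.5 and 14.3 CPM at 0.12 µM (log2 2.81, SE 0.62, adjusted p = 0.000883). ADAMTS1, a secreted protease, had 179, 477, 176 and 304 CPM at 0.37 µM and 15.9, 14.9, 27.1 and 18.5 CPM at 0.12 µM (log2 3.89, adjusted p = 4.63e-05). Both were free of overlap. The falls were those of PLAU and TIMP2. PLAU, urokinase, had 3.54, 2.54, 4.79 and 7.47 CPM at 0.37 µM and 30.3, 34.4, 38.6 and 36.5 CPM at 0.12 µM (log2 -2.92, SE 0.37, adjusted p = 4.57e-09). It did not overlap between doses. TIMP2, a protease inhibitor, had a log2 change of -0.74 (adjusted p = 0.0379) and was not called without any 1 of 6 wells (every 0.37 µM well and 0.12 µM wells 1 and 3; highest adjusted p = 0.247).

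Ribosomal protein genes were lower by small amounts. Of 76 tested, 29 fell and 0 rose, and all 76 had a negative log2 change, with a median of -0.37. The direction rests in part on the scaling, since under size factors 8 fell and the median was -0.07, or -0.34 relative to the median of all genes. Without 0.37 µM well 2 the count was 14, and without 0.12 µM well 2 it was 18. RPL10A had 864, 622, 772 and 763 CPM at 0.37 µM and 1701, 1811, 1628 and 2017 CPM at 0.12 µM, the largest fall of the list (log2 -1.24, SE 0.12, adjusted p = 8.49e-13). RPL7A averaged 2814 ± 404 CPM at 0.37 µM and 4914 ± 309 CPM at 0.12 µM (log2 -0.80, adjusted p = 1.45e-07). Among 23 splicing factors 2 fell and 0 rose, near the 5.6% lower and 2.52% higher of all genes tested. With size factors 2 fell and 2 rose. The falls were those of HNRNPA1 at 410 ± 76.8 and 928 ± 61.6 CPM (log2 -1.18, adjusted p = 1.24e-07) and HNRNPL at 43.9 ± 10 and 103 ± 21.7 CPM (log2 -1.23, adjusted p = 0.000884). Among 25 ribosome assembly factors 1 rose and 1 fell, again near those shares, and with size factors 2 and 1. The fall was that of FBL, the nucleolar methyltransferase fibrillarin, at 63.5 ± 8.95 and 133 ± 22.3 CPM (log2 -1.06, adjusted p = 0.00327), and the rise, that of RRP12 (log2 2.41), was lost without 0.37 µM well 1 or 0.12 µM wells 2 or 4 (highest adjusted p = 0.0667).

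Secreted signals of inflammation were lower in sum but mixed gene by gene, with a positive log2 change in 9 of 18. They summed to 610, 535, 539 and 572 CPM at 0.37 µM and 1300, 1094, 1470 and 1159 CPM at 0.12 µM. The doses did not overlap, and most of that sum was CXCL12. DMSO wells ranged from 1381 to 2786 CPM. Of 18 chemokine and cytokine genes, 1 rose and 5 fell, and without any 1 well other than 0.37 µM well 4 only 2 or 3 falls were called. With size factors 1 rose and 2 fell, and the list median of -0.28 became 0.49 without 0.12 µM well 1. CXCL12, a stromal chemokine, had 393, 282, 317 and 319 CPM at 0.37 µM and 906, 702, 1138 and 887 CPM at 0.12 µM (log2 -1.47, SE 0.28, adjusted p = 9.44e-05). CCL2, which draws monocytes, averaged 31.4 ± 16.8 CPM at 0.37 µM and 114 ± 26.9 CPM at 0.12 µM (log2 -1.86, adjusted p = 0.000769). CXCL8, which draws neutrophils, went the other way, with 69.2, 80.3, 81.1 and 77.6 CPM at 0.37 µM and 2.78, 0, 5.34 and 1.52 CPM at 0.12 µM. Its 4 wells at 0.37 µM were alike and far above, but the call (log2 4.98, SE 1.48, adjusted p = 0.0314) held only without 0.12 µM well 3 (log2 5.74) and was lost on leaving out any 1 of the other wells (highest adjusted p = 0.092). Of 24 interferon-stimulated genes 1 rose and 3 fell, and with size factors 1 and 1. IFIT1 averaged 0.893 ± 0.421 CPM at 0.37 µM and 6.33 ± 3.8 CPM at 0.12 µM (log2 -2.80, adjusted p = 0.00336), and without 0.37 µM well 2 it was the only fall called. The rise, that of IFIT2 (log2 3.05), was lost without any 1 well other than 0.37 µM well 3 (highest adjusted p = 0.166). Of 20 immediate early genes 3 rose and 2 fell, while with size factors 6 rose and 0 fell. DUSP5, a phosphatase of ERK, averaged 267 ± 68.2 CPM at 0.37 µM and 49.8 ± 10.2 CPM at 0.12 µM (log2 2.42, adjusted p = 0.000383), and it was the only rise called without 0.37 µM well 2 or 0.12 µM wells 1 or 2. The falls, those of KLF2 (log2 -1.27) and KLF4 (log2 -0.74), were both lost without 0.37 µM wells 2, 3 or 4 or 0.12 µM well 1 (highest adjusted p = 0.135 and 0.174).

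Outside these lists, several genes were nearly off at 0.12 µM and well expressed at 0.37 µM. MYCT1 (chr6:152697895-152724567), a MYC target gene, had 15.6, 94, 42 and 41.4 CPM at 0.37 µM, 1803 counts in all, and 0 counts in every 0.12 µM well. It was at least 472-fold higher against a floor of 3 counts over the group (adjusted p = 5.30e-07), and its DMSO median and its means at 0.04 and 1.11 µM were 0. MLLT11 had 350, 840, 491 and 490 CPM at 0.37 µM and 18.4, 21, 4.12 and 4.72 CPM at 0.12 µM (log2 5.49, SE 1.09, adjusted p = 0.000227). PEG10 (chr7:94656325-94669695), an imprinted gene derived from a retrotransposon, had 96.3, 923, 202 and 351 CPM at 0.37 µM and 8.47, 7.36, 12.3 and 9.1 CPM at 0.12 µM. The range at 0.37 µM was wide, and the rule that named the gene required no overlap between the doses (log2 5.40, SE 0.69, adjusted p = 6.89e-09; 4.55 without 0.37 µM well 2).

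DHRS2, a short-chain dehydrogenase, had 1213 counts at 0.37 µM and 2 at 0.12 µM, a ratio of 476 (132 to 3938). It leaned on 0.37 µM well 2, at 91.6 CPM against 6.98 to 17.4 CPM in the other wells of that dose, and without it the adjusted p was 0.0506. CRYM, a thyroid hormone binding protein, had 61.3, 59.3, 70.7 and 59.5 CPM at 0.37 µM and 0.662, 13.1, 1.09 and 1.35 CPM at 0.12 µM (log2 3.95, adjusted p = 0.00215; 5.91 without 0.12 µM well 2). SPP1, the secreted phosphoprotein osteopontin, averaged 395 ± 77.1 CPM at 0.37 µM and 23.9 ± 20 CPM at 0.12 µM (log2 4.04, adjusted p = 0.0227), and was not called without 0.37 µM well 2 or 0.12 µM wells 1, 2 or 4 (highest adjusted p = 0.0886). ZNF365, CCL26, ULBP1 and TRMT10B completed the 15 largest rises of the abundance rule, each with a call lost on leaving out any 1 of at least 4 wells (highest adjusted p = 0.121, 0.107, 0.176 and 0.0905).

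Genes outside the lists were also among the largest falls. PPL, the cell junction protein periplakin, had 1.6, 0.553, 3.57 and 3.99 CPM at 0.37 µM and 47.5, 39.7, 52.9 and 38.1 CPM at 0.12 µM (log2 -4.17, SE 0.39, adjusted p = 1.19e-13). PDZRN3, a ubiquitin ligase, had 12.5, 5.3, 4.89 and 3.99 CPM at 0.37 µM and 57.1, 76.2, 63.1 and 106 CPM at 0.12 µM (log2 -3.51, SE 0.35, adjusted p = 1.50e-12). ROR1, a receptor for WNT5A, had 0.114, 0, 0.917 and 1.84 CPM at 0.37 µM and 28.7, 15.9, 11.8 and 24.8 CPM at 0.12 µM (log2 -4.76, adjusted p = 6.25e-05; -5.74 without 0.37 µM well 4). These 3 genes were named under a rule that required no overlap between the doses, so their separation is no further result. Their DMSO medians of 66.2, 101 and 16.7 CPM were near or above the 0.12 µM means. TBC1D8, C16orf74, PDGFRL and ACKR4 had log2 changes of -3.71, -3.77, -3.58 and -3.64, that of ACKR4 being -2.77 without 0.12 µM well 3.

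The same test called few genes in the step below it. Between 0.12 and 0.04 µM, also about 3-fold apart, 2 of 14259 genes passed (0.014%), 1 higher and 1 lower at 0.12 µM, with 644 at an unadjusted p under 0.05. Between 0.37 and 0.12 µM 2974 had an unadjusted p under 0.05. Whether the 2 steps differed was tested directly as the difference of the changes, which shares the 0.12 µM wells between both. The later step was more positive for 28 genes (0.196%) and more negative for 113 (0.792%), together 0.989%. Those counts were 13 to 17 and 62 to 80 without any 1 of the 0.12 µM wells.

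Among the genes named for the size of that difference, or described above, HSPA1A changed by 4.36 over the later step and 0.02 over the earlier one (adjusted p of the difference = 2.04e-08). DDIT4 changed by 2.51 and -1.40 (adjusted p = 0.000199), and HSPA5 by 2.60 and -0.93 (adjusted p = 0.000362). Both of these were thus lower at 0.12 µM than at 0.04 µM, which by itself enlarges the difference. PEG10 changed by 5.40 and -0.79 (adjusted p = 0.000613), ZFAND2A by 3.20 and -0.27 (adjusted p = 0.00445), and MT2A by 2.87 and -0.32 (adjusted p = 1.02e-07). Across lists, the later step was more positive for 6 of 27 heat shock genes, 5 of 19 of the integrated stress response and 4 of 24 p53 targets. Over all genes tested that share was 0.196%. The later step was more negative for 10 of 32 mitosis, 6 of 25 cholesterol and 5 of 13 mitochondrial mRNA genes, against 0.792% of all genes. In the 20S core, the 19S cap and the CCT chaperonin, 0 genes had steps that differed. MT-CO3 changed by -5.57 and -1.26 (adjusted p = 9.85e-13), FDPS by -2.78 and 0.02 (adjusted p = 2.35e-09), CDK1 by -5.90 and 0.79 (adjusted p = 0.00121) and TXNIP by -3.81 and -0.49 (adjusted p = 5.66e-09).

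Of 44 NRF2 targets, 3 had steps that differed, against 0.989% of all genes tested. HMOX1 changed by 0.70 over the later step and 1.75 over the earlier one, NQO1 by 0.72 and 0.36, and GCLM by 0.56 and 0.91, and for none of these did the difference between steps pass (adjusted p = 0.262, 0.866 and 0.936). In the list 1 gene had a more positive later step, SQSTM1 (2.17 and 0.36, adjusted p = 0.0191), and 2 a more negative one, TKT (-1.81 and -0.11, adjusted p = 0.000459) and AKR1C3 (-1.19 and 0.18, adjusted p = 0.0256).

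**Figure D4:**
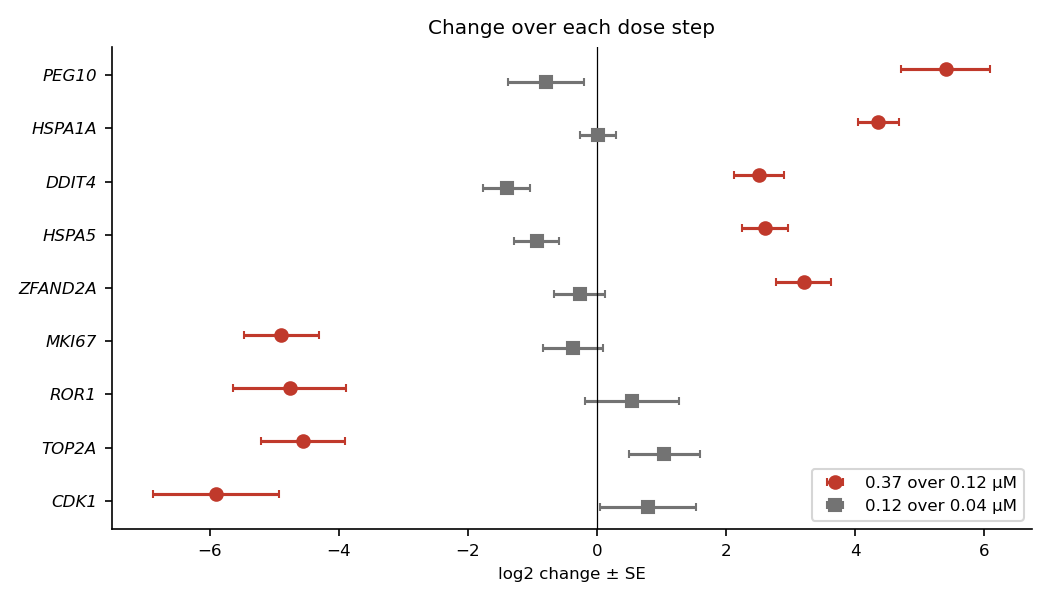
Log2 change with its SE over the later step (0.37 over 0.12 µM, red circles) and over the earlier step (0.12 over 0.04 µM, grey squares) for 9 genes among those whose steps differed the most. The steps share the 0.12 µM wells. HSPA1A lies at 4.36 over the later step and 0.02 over the earlier one, and CDK1 at -5.90 and 0.79.

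Set among its neighbouring doses, 0.37 µM was for many genes an extreme and not a point on a slope. For 30 of 32 mitosis genes (93.8%) the mean at 0.37 µM was the lowest of DMSO, 0.04, 0.12, 0.37 and 1.11 µM, against 26.2% of all genes tested. The same held for 27 of 30 matrix genes (90%), 21 of 25 cholesterol genes (84%) and 60 of 76 ribosomal protein genes (78.9%). Medians of the mitosis list in each well, on the log2 scale relative to DMSO, averaged -0.36, -0.42, -2.70 and 0.65 at 0.04, 0.12, 0.37 and 1.11 µM. For the cholesterol list they averaged 0.00, -0.07, -1.71 and 0.33. Wells at 1.11 µM held 1432727 to 1709977 counts, and levels there are shares of that smaller total.

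Other groups peaked at 0.37 µM or rose on. The 0.37 µM mean was the highest of the 5 for 17 of 18 genes of the 19S cap (94.4%), 12 of 14 of the 20S core (85.7%) and 26 of 44 NRF2 targets (59.1%), against 27.1% of all genes. The list median of NRF2 targets over DMSO averaged 1.25, 1.51, 1.83 and -0.35 at the 4 rising doses. Heat shock genes had 0.18, 0.36, 1.92 and 2.90, and only 4 of 27 (14.8%) were highest at 0.37 µM. Mitochondrial mRNAs kept falling, at -0.18, -0.88, -3.17 and -4.10.

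**Figure D5:**
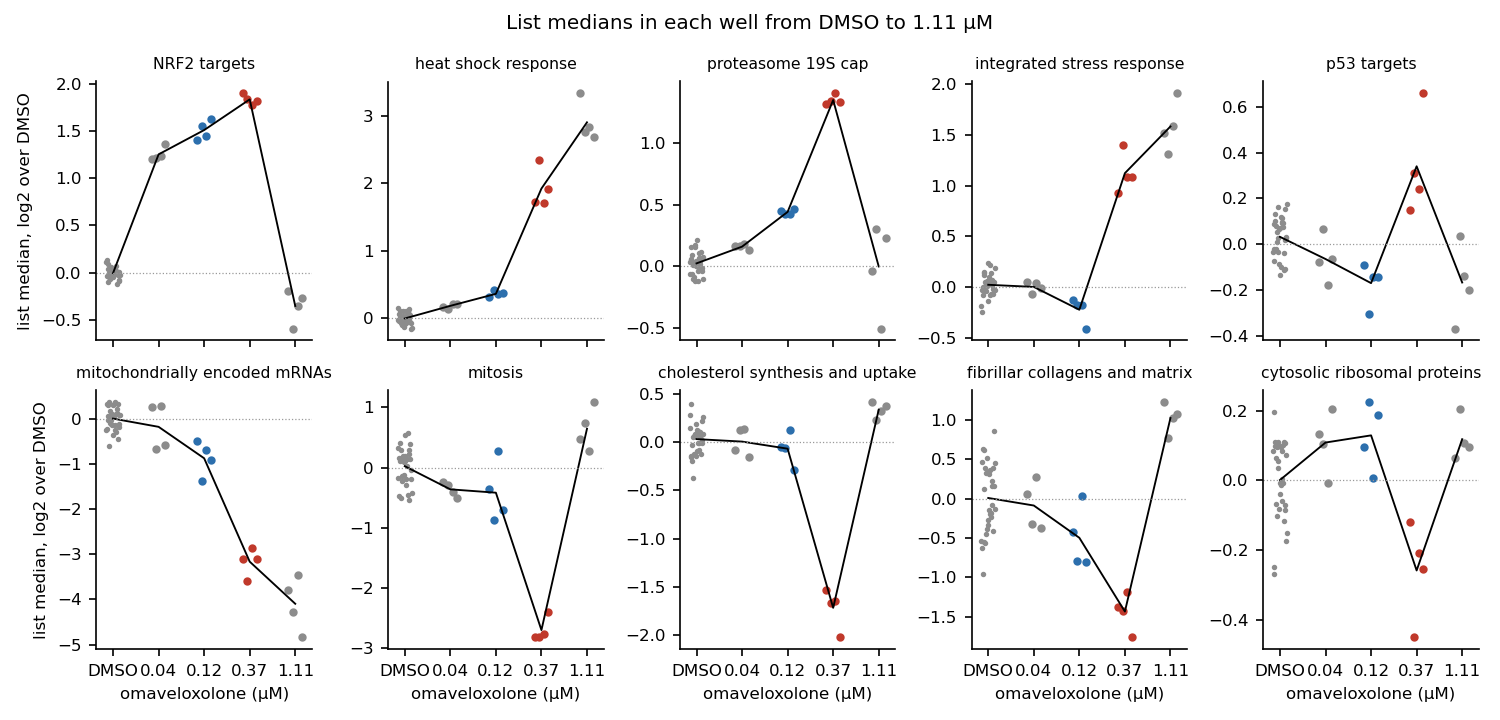
Median log2 level over DMSO of 10 gene lists, with 1 point per well and a line through the means of the wells, in order of dose from DMSO through 0.04, 0.12, 0.37 and 1.11 µM. Mitosis and cholesterol lists dip at 0.37 µM to means of -2.70 and -1.71, while heat shock genes climb to 1.92 at 0.37 µM and 2.90 at 1.11 µM.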

How the data were processed

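The deposited table held whole-number counts per gene and well, which the authors made with kallisto and bustools on GRCh38, per the submitters' processing notes; versions and any collapsing of molecular identifiers are not given in the sources used here, so a count may be a read. Genes were named by GENCODE release 29 (Ensembl 94); chromosome Y genes and XIST were left out. Total counts per well ranged from 6625505 to 10386621 in the 8 wells compared, and counting intervals and floors cover counting error only.

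All 72 wells were fitted together with edgeR 4.0.16, quasi-likelihood test (R 4.3.3; TMM scaling, filterByExpr minimum count 10, robust dispersion) with 1 coefficient per dose, which shares the estimate of spread. Contrasts were 0.37 minus 0.12 µM, 0.12 minus 0.04 µM and their difference. P-values were adjusted by Benjamini-Hochberg over 14259 genes, threshold 0.05. SE derives from the F value. CPM uses TMM-scaled totals. DESeq2 1.42.0 gave the alternative size factors and Wald test. Permutation tests went through every split with NumPy 2.4.6. SciPy 1.17.1 gave their adjusted p and the exact counting intervals. The fit was also run on counts simulated with the spread estimated from these data. No effect of plate position or shift in scaling was built in, so that run cannot speak to either.

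Members, gene lists (32, besides markers) and named genes were chosen with earlier results of these data known. Named were 11 fixed NRF2 genes, the 15 largest rises and falls at 10 CPM or more without overlap, up to 4 called members per list with the smallest p, and 5 genes per direction of the step comparison. A few genes counted in these lists are not reported here. Other list members were named after their values were seen. Alternatives were other scaling, no filter, fewer doses, the side of the plate as a covariate, single pairs of plate columns, thinning, a replicate block and leaving out each well.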

Additional observations from a re-analysis of the deposited data

Results flagged for a closer look

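In groups of 4 wells, 21 values of named genes stood apart from the other 3 wells by Dixon's criterion, out of 276 groups searched, where chance alone gives about 1 in 20. Of the 21, 9 were in 0.37 µM well 2. In that well the flagged values were above the other wells of the dose for OSGIN1 (199 CPM), DHRS2 (91.6 CPM), ULBP1 (108 CPM), CCNA2 (5.75 CPM), SLC3A2 (577 CPM), IFIT2 (23.2 CPM) and MT1E (148 CPM). They were below them for TCP1 (423 CPM) and FBL (50.3 CPM). The other flagged wells at 0.37 µM were well 3 for TOP2A (7.14 CPM, above) and BCL2L2 (167 CPM, below) and well 1 for PDZRN3 (12.5 CPM, above).

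At 0.12 µM, well 1 was above the others for DHRS2 (0.265 CPM) and PLOD2 (5.03 CPM) and below them for HSPA1A (112 CPM). Well 2 was above for CRYM (13.1 CPM) and C16orf74 (59.5 CPM). Well 3 was above for ASNS (66.2 CPM) and FADS2 (195 CPM), and well 4 was above for COX4I1 (747 CPM) and below for MMP1 (14.3 CPM). Each call that any 1 well ends is named with that well in the results above, or is counted below.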

How the results depend on the processing

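Calls of the step were 360 higher and 799 lower. They numbered 803 and 489 with DESeq2 size factors, 1475 and 778 with the DESeq2 Wald test, 1142 and 1107 from the 8 wells alone, 701 and 1192 without the 3.33 and 10 µM wells, 849 and 1370 without 1.11 µM as well, 96 and 298 within plate columns 6 and 7, and 66 and 287 within plate columns 16 and 17. Leaving out 1 well gave 215 (without 0.37 µM well 2) to 298 higher and 546 to 650 lower. The fits without high doses kept at least 1157 of the 1159 calls, size factors 849, thinning to equal depth 1108 and no filter 862. The difference of steps gave 28 and 113, then 49 and 67 with size factors, 91 and 307 without 3.33 and 10 µM, 119 and 416 without 1.11 µM too, and 13 to 30 and 62 to 105 without 1 well. The cause of these shifts was not tested.

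The replicate block, in a fit of the 8 wells, gave 1081 higher and 978 lower. Wells with the same number lay side by side in the same plate row. They did not deviate together over 7954 genes (correlations of -0.01, -0.02, 0.03 and 0.05), and the main fit did not pair them. Some levels, such as that of COL1A1 above, still differed between the sides of the plate at both doses.

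The total-count ratio of 1.27 was 1.21 to 1.33 without 1 well, with an exact permutation p of 0.0571 without any 0.37 µM well and 0.0286 without any 0.12 µM well. Of 128 named genes called, 57 stayed called under all 19 alternatives, 33 lost the call without 1 well and 0 reversed. Only uncalled genes reversed: SLC7A11 (-0.04 to 0.19 without 1 well), KEAP1 (0.17 with size factors, 0.18 Wald, 0.11 in columns 16 and 17, -0.20 to 0.02 without 1 well) and BACH1 (0.16, 0.16 and 0.14 likewise, -0.25 to 0.06 without 1 well). Genes under about 10 CPM are limited by depth.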

Other observations

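Called genes outside every list, chosen here after their values were seen as those with the smallest p at 10 CPM or more and no overlap between doses, included several abundant transcripts. Higher at 0.37 µM were KLHL21, a ubiquitin ligase adaptor, with 412 ± 92.1 CPM at 0.37 µM and 78.2 ± 16.3 CPM at 0.12 µM (log2 2.40, edgeR adjusted p = 6.44e-09), and PLIN2, which coats lipid droplets, with 615 ± 106 and 221 ± 17.3 CPM (log2 1.47, adjusted p = 4.80e-08). GLRX, a glutaredoxin, averaged 1222 ± 67.4 CPM at 0.37 µM and 382 ± 40.4 CPM at 0.12 µM (log2 1.68, adjusted p = 2.08e-06), and PNP, of purine salvage, 242 ± 52.7 and 27.4 ± 3.99 CPM (log2 3.14, adjusted p = 4.10e-06). TNFSF9, the ligand of the costimulatory receptor 4-1BB, averaged 244 ± 120 CPM at 0.37 µM and 24.6 ± 6.18 CPM at 0.12 µM (log2 3.31, adjusted p = 7.66e-06).

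Lower at 0.37 µM was ADH1B, an alcohol dehydrogenase, with 171, 114, 134 and 145 CPM at 0.37 µM and 975, 1023, 1006 and 1083 CPM at 0.12 µM (log2 -2.86, SE 0.21, adjusted p = 1.92e-18). RPL22L1, a paralog of a ribosomal protein, averaged 223 ± 46.8 CPM at 0.37 µM and 1108 ± 93 CPM at 0.12 µM (log2 -2.31, adjusted p = 5.89e-18), a deeper change than any of the 76 ribosomal protein genes listed. TMSB4X, an actin monomer binder, averaged 5172 ± 321 and 10932 ± 506 CPM (log2 -1.08, adjusted p = 1.36e-13).

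The paralogs TWIST1 and TWIST2, transcription factors of mesenchymal cells, went opposite ways. TWIST1 had 647, 1161, 646 and 691 CPM at 0.37 µM and 344, 355, 358 and 385 CPM at 0.12 µM (log2 1.13, SE 0.18, adjusted p = 1.51e-06). TWIST2 had 388, 359, 328 and 337 CPM at 0.37 µM and 985, 899, 915 and 905 CPM at 0.12 µM (log2 -1.39, SE 0.15, adjusted p = 6.79e-11). DMSO medians were 552 CPM for TWIST1 and 1793 CPM for TWIST2. For TWIST1 every 0.12 µM well was under the DMSO range of 458 to 655 CPM. At 0.37 µM its wells 1 and 3 lay inside that range and wells 2 and 4 above it, well 2 by far the most.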
